A study of Macaca mulatta with 102 samples.

Results

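The CD28 family of receptors was followed in CD3+ T cells of rhesus macaques (Macaca mulatta) that were healthy or had received a hematopoietic cell transplant (HCT). The members are 4 genes, CD28, CTLA4, ICOS and BTLA, out of 14133 genes that the array names by a probe set of their own. They were chosen by name: a probe set counted when the platform annotation pairs it with that gene alone. This gave 3 probe sets for CD28, 3 for CTLA4, 1 for ICOS and 1 for BTLA, and all 8 passed the filter on dim probe sets. PDCD1, which encodes the family member PD-1, has no single-gene probe set and was not analysed here.

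T cells that bind antigen need a further signal, which CD28 supplies when it meets CD80 or CD86 on the presenting cell. CTLA4 binds the same ligands more tightly, appears on activated and regulatory T cells, and restrains the response. ICOS is induced by activation, binds ICOSLG and helps follicular and effector T cells. BTLA, which is present on resting lymphocytes, binds TNFRSF14 and inhibits. Belatacept, one of the agents given here, is a fusion protein built from the CTLA4 ligand-binding part and covers CD80 and CD86, so that CD28 cannot engage them. In the macaque gene table of RefSeq (assembly T2T-MMU8v2.0) CD28, CTLA4 and ICOS lie next to each other among the protein-coding genes of 1 chromosome, and BTLA lies between ATG3 and CD200.

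T cells were sorted by flow cytometry on CD3 from blood, and 102 arrays from 66 animals were deposited. Healthy controls gave 46 of them (45 animals, with 2 arrays of R.201 averaged), and 56 came after transplantation. The labels give the animal, the group, the day and a numbered batch, but no strain, age or donor, and they do not say what the letter F in group names stands for.

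Autologous recipients, which got their own cells back, were measured at day 14 (Auto.D14, 3 animals), at days 30 to 36 (Auto.D36, 4 animals) and at day 100 (Auto.D100, 4 animals). All other recipients had allogeneic cells and differed in what they were given against graft-versus-host disease. Without any prophylaxis, 4 animals were sampled between days 6 and 12 (NoRx.F). Sirolimus, which blocks mTOR, was given alone to 4 animals sampled between days 12 and 24 (Siro.F). Tacrolimus, which blocks calcineurin, was combined with methotrexate in 3 animals, seen at day 14 (Tac.Mtx.D14) and again between days 26 and 67 (Tac.Mtx.F). Belatacept and sirolimus were combined in Bela.Siro.D14 (3 animals), Bela.Siro.D30 (2 animals at day 30) and Bela.Siro.F (7 animals, sampled from day 26 to day 105). KY1005 is an antibody that blocks the ligand of OX40. Alone it was given in KY1005.D14 (2 animals at days 14 and 16) and KY1005.F (3 animals, from day 16 to day 23). Together with sirolimus it was given in KY1005.Siro.D14 and KY1005.Siro.D28 (5 animals each) and in KY1005.Siro.F (4 animals, between days 97 and 106). Drug names are read from the group names, and what each agent does is background.

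Values are log2 signals as the authors normalized them, so a difference of 1 is a 2-fold change of signal. A level of 1 probe set cannot be set against the level of another, because probes differ in how well they bind. Differences and their standard errors (SE) come from 1 limma fit of all groups with the labelled batch as a term. Among healthy arrays an F test for batch gave p under 0.05 for 0.255% of probe sets and above 0.95 for 24.3%. For the members p ran from 0.501 to 0.989. Healthy batches thus differed less than chance alone gives. Whether the values were adjusted for batch before deposition was not tested, and SE and p values could be affected. Adjusted p values are Benjamini-Hochberg values over 31711 probe sets, and a difference was called at an adjusted p of 0.05 or less. Each gene was read by its brightest probe set, with the others as a check. The number of arrays limits the precision. All comparisons with healthy controls share those controls. In a bulk sample, fewer cells of a type and less RNA per cell cannot be told apart.

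The sorted cells carried T cell transcripts. CD3 genes have no single-gene probe set, but the signals of ZAP70 (12.5 ± 0.180, SD, n = 45) and CD5 (10.8 ± 0.300) in healthy animals stood above those of 99.1% and 96.1% of probe sets. The B cell antigen gene MS4A1 stood at the 23.4th percentile (5.47 ± 0.919), and the NK gene KLRF1 was bright (9.29 ± 0.901, 86.5th percentile). FOXP3, the regulatory T cell factor, was near the floor of the array (5.06 ± 0.223, 12.2th percentile). In 6 arrays, 4 of them healthy and 2 of Auto.D14, the log2 ratio of the 3' to the 5' actin control probe sets, a sign of RNA quality, was above 2.5. Several member differences that rest on these arrays are given with and without them. Other Auto.D14 values, such as its CTLA4 difference from healthy animals and its marker genes, are given with them only. The highest correlation of any 2 arrays was 0.995, between R.212 in KY1005.D14 and R.206 in KY1005.F, as high as between the repeat arrays of R.201. Their CTLA4 signals of 8.02 and 8.46 differed, and they were kept as separate animals.

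Of the members, CTLA4 differed most from healthy T cells. Its brightest probe set was higher in 5 of 15 transplant groups and lower in 0, by 2.14- to 3.42-fold. ICOS was called in 1 group (NoRx.F, higher), BTLA in 1 group (KY1005.Siro.D28, lower) and CD28 in 0 of 15. At an unadjusted p of 0.05 or less, the counts were 9 groups for CTLA4, 2 for ICOS, 5 for BTLA and 1 for CD28. The probe sets called higher made up 13.5% of all in NoRx.F, 4.24% in Siro.F, 1.72% in KY1005.F, 6.9% in Tac.Mtx.F and 6.94% in KY1005.Siro.D28, where 5.16% were called lower. In either direction the shares were 27.5% in NoRx.F, 8.91% in Siro.F, 0.88% in Tac.Mtx.D14 and 14.3% in Tac.Mtx.F. They were 2.68% in Bela.Siro.D14, 1.14% in Bela.Siro.D30 and 10% in Bela.Siro.F, and 0.202% and 3.28% in KY1005.D14 and KY1005.F. In KY1005.Siro.D14, KY1005.Siro.D28 and KY1005.Siro.F they were 4.15%, 12.1% and 6.84%, and in Auto.D14, Auto.D36 and Auto.D100 19.4%, 9.26% and 2.48%. A call in NoRx.F or Auto.D14 was thus common among all probe sets, and one in KY1005.F was rare.

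**Figure D1:**
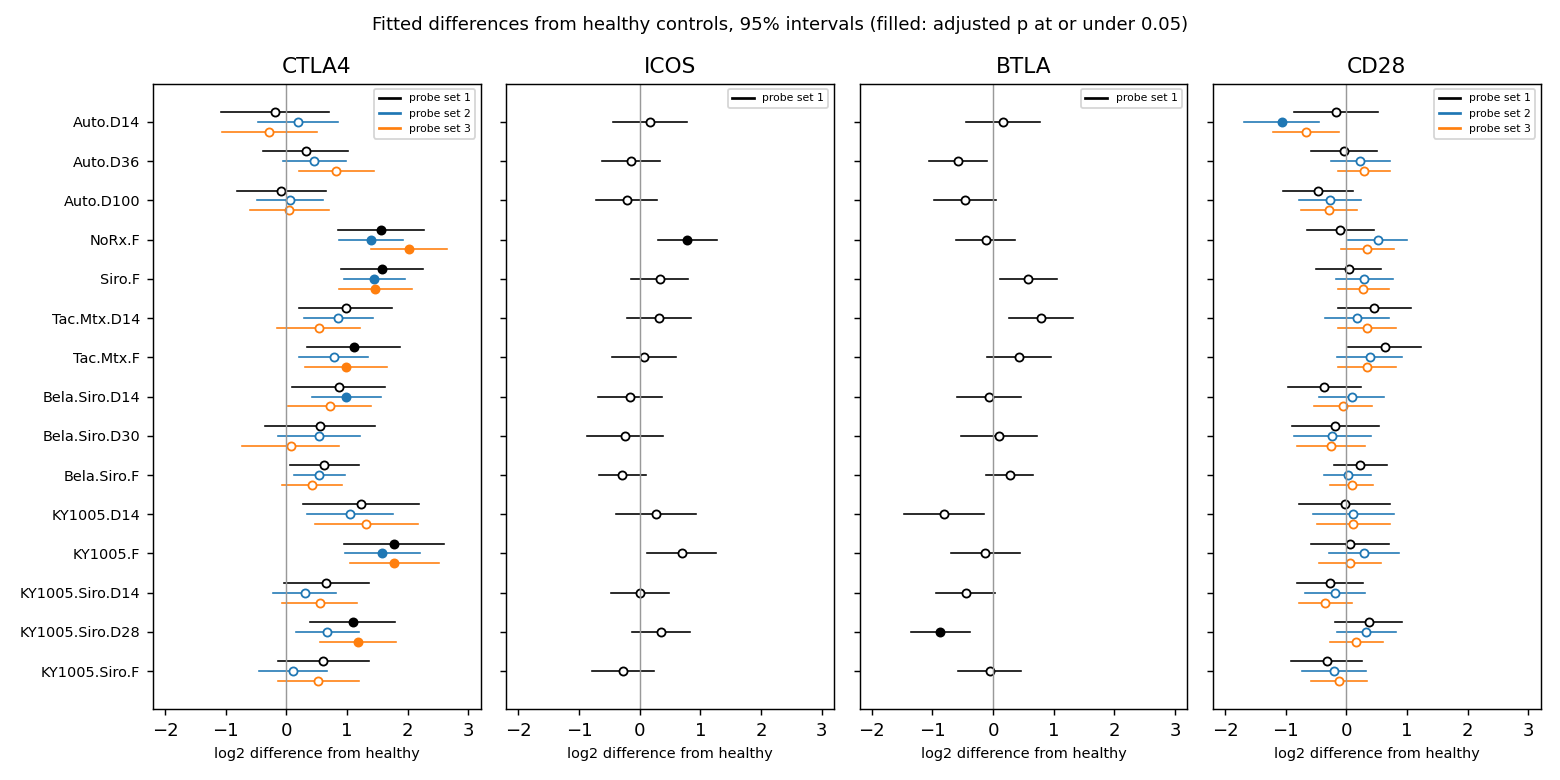
Fitted log2 difference of each transplant group from healthy controls (horizontal axis) for every probe set of CTLA4, ICOS, BTLA and CD28, with 95% intervals; filled points have an adjusted p at or under 0.05. The CTLA4 points lie to the right of 0 in most groups, while the CD28 points scatter around 0.

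CTLA4, which restrains CD28 signalling by taking its ligands, had signals from 5.17 to 7.67 in healthy animals with a median of 6.56 (probe set MmugDNA.25217.1.S1_at). In NoRx.F the signals were 7.70 in R.53, 9.41 in R.50, 7.36 in R.51 and 8.39 in R.52. All but R.51 were above every healthy array, and R.51 lay inside the healthy range. The fitted difference was 1.56 ± 0.36 (SE, adjusted p = 0.000329), a 2.95-fold higher signal. In Siro.F the signals were 8.44 in R.13, 8.47 in R.18, 7.90 in R.17 and 8.10 in R.16, all 4 above the highest healthy array, which held for 0.385% of probe sets. The difference was 1.57 ± 0.34 (adjusted p = 0.000882), or 2.96-fold. With sirolimus alone the group mean was as high as without prophylaxis, and the animals were less spread out (SD 0.275 against 0.903). The direct difference between both groups was 0.01 ± 0.43, with a 95% interval from -0.85 to 0.86, so a difference of nearly 2-fold either way is within the error.

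Animals given KY1005 alone had the highest fitted CTLA4 mean of the 16 groups on probe sets 1 and 2, while NoRx.F led on probe set 3 (7.65 against 7.41). The signals in KY1005.F were 8.77 in R.211, 8.46 in R.206 and 7.88 in R.212, all 3 above every healthy array (so for 1.12% of probe sets), and the difference was 1.77 ± 0.42 (adjusted p = 0.00993), or 3.42-fold. All KY1005 groups lie in batch 6 with 7 healthy arrays, 2 of which had the high actin ratio. Of these, R.208 had the lowest CTLA4 signal of all healthy arrays (5.17) and R.207 had 6.24 (and the lowest on probe set 3, 4.62), against 6.46 to 7.45 in the other healthy arrays of batch 6. When the 6 arrays of high actin ratio were left out, the difference was 1.41 ± 0.43 (adjusted p = 0.119), and with the ratio as a covariate the call was kept. The call was also lost without R.211 (1.57, adjusted p = 0.166) or without R.206 (1.72, adjusted p = 0.0616). In the earlier group KY1005.D14 the signals were 7.62 in R.210 and 8.02 in R.212, and the difference of 1.22 ± 0.48 did not pass (adjusted p = 0.278).

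In Tac.Mtx.F CTLA4 was 8.14 in R.21, 7.38 in R.20 and 7.35 in R.19, and only R.21 was above the healthy range. The difference was 1.11 ± 0.39 (adjusted p = 0.0402). It did not pass without R.21 (0.85, adjusted p = 0.295), R.20 (1.23, adjusted p = 0.0951) or R.19 (1.25, adjusted p = 0.0687), nor when batch 3 alone was fitted (1.11, adjusted p = 0.0645). The same animals at day 14 had 7.14 in R.21, 8.17 in R.20 and 7.16 in R.19, a difference from healthy of 0.97 ± 0.39 (adjusted p = 0.22). R.20 was the high animal at day 14 and R.21 at the later time.

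In KY1005.Siro.D28 CTLA4 was 8.09 in R.217, 7.88 in R.218, 7.32 in R.219, 6.96 in R.220 and 8.22 in R.221. All 5 were above the healthy median and 3 above the healthy range. The difference was 1.10 ± 0.35 (adjusted p = 0.0288), and 0.74 ± 0.37 without the arrays of high actin ratio (adjusted p = 0.372). It also lost its call without R.217 (1.00, adjusted p = 0.0867), R.218 (1.05, adjusted p = 0.0545) or R.221 (0.97, adjusted p = 0.11). The difference was 0.65 ± 0.35 at day 14 (adjusted p = 0.305) and 0.61 ± 0.38 in KY1005.Siro.F (adjusted p = 0.32). At neither of these times was the 1.10 of day 28 outside the 95% interval, which ran from -0.05 to 1.35 and from -0.14 to 1.36.

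Autologous recipients had no CTLA4 call. The CTLA4 differences were -0.19 ± 0.44 in Auto.D14 (adjusted p = 0.793) and 0.32 ± 0.35 in Auto.D36 (adjusted p = 0.665). In Auto.D14 the signals were 6.90 in R.201, 6.83 in R.202 and 6.57 in R.200, all inside the healthy range, with 2 of the 3 arrays of high actin ratio. In Auto.D36 the signals were split: R.201 and R.202 had 7.72 and 7.62, while R.62 and R.200 had 6.43 and 6.05. NoRx.F set directly against Auto.D14 had a CTLA4 signal higher by 1.75 ± 0.57 (adjusted p = 0.0411, 7.5% of probe sets called). Without the arrays of high actin ratio only R.200 is left in Auto.D14, and the difference was larger and less precise (1.93 ± 0.74, adjusted p = 0.34), with that single array assumed to vary like the other groups. Those 2 groups share no batch.

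**Figure D2:**
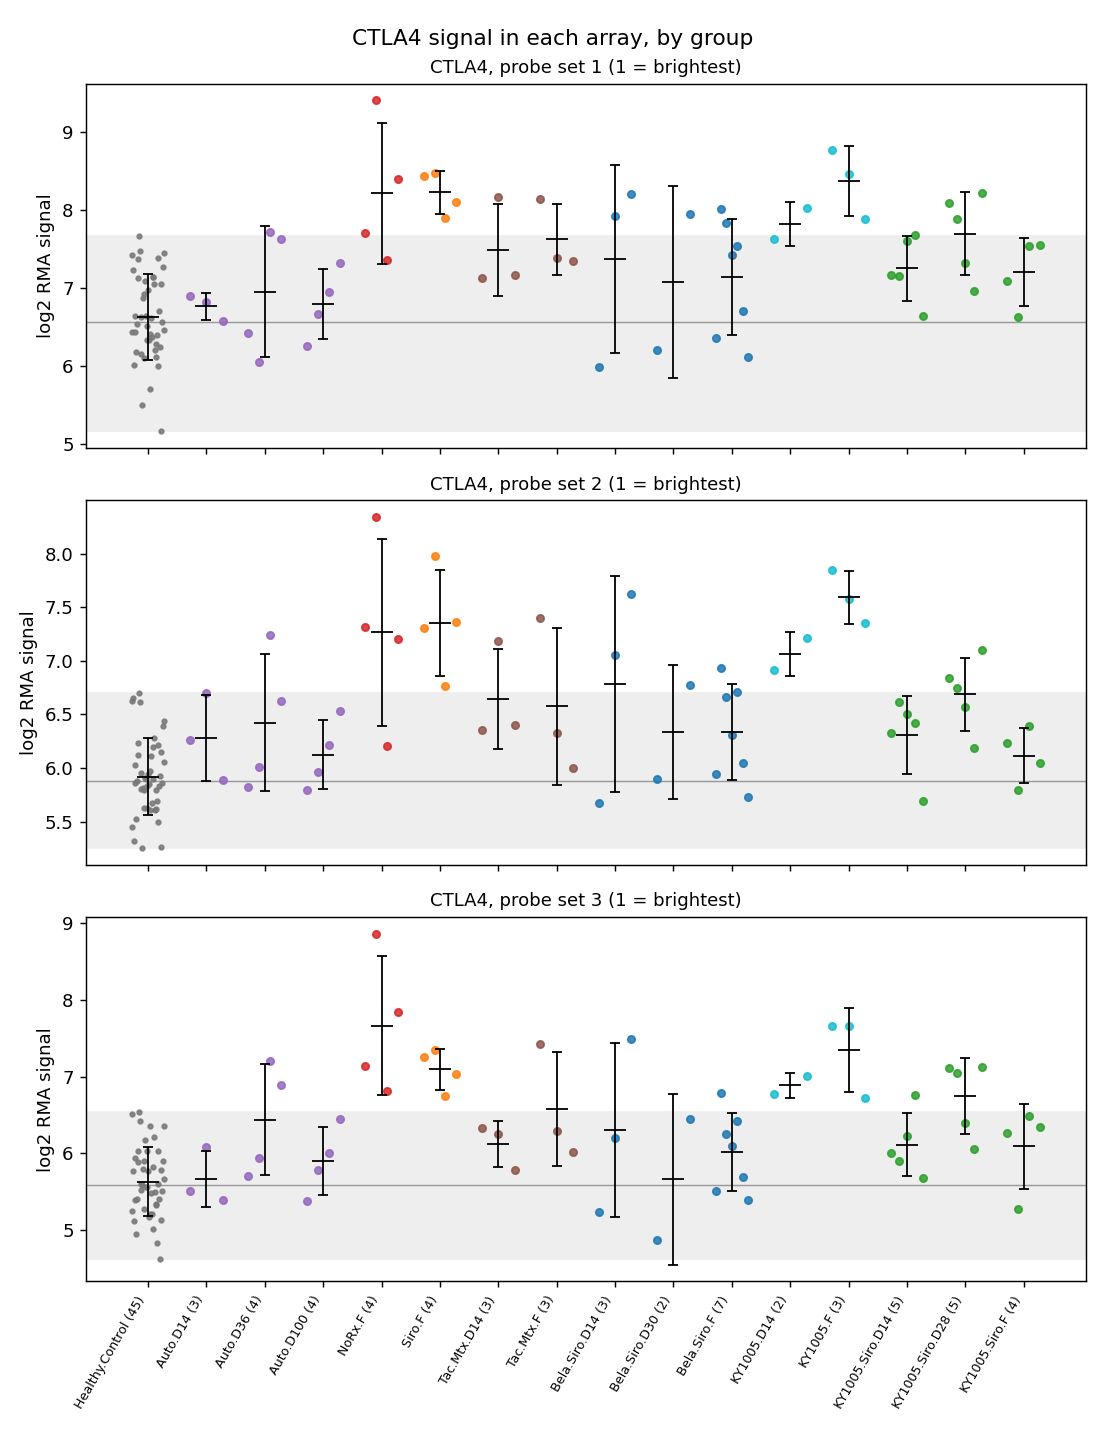
Log2 RMA signal of the 3 CTLA4 probe sets in every array (points), by group with the number of arrays in brackets; bars are mean and SD, the grey band is the healthy range and the grey line the healthy median. For probe set 1 the Siro.F and KY1005.F arrays all lie above the grey band, and the Bela.Siro arrays fall on both sides of its upper edge.

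The dimmer CTLA4 probe sets gave the same picture for the 3 groups highest on the first. The probe set MmugDNA.30020.1.S1_at was higher by 1.39 ± 0.26 in NoRx.F (adjusted p = 1.73e-05), 1.45 ± 0.25 in Siro.F (adjusted p = 3.26e-05) and 1.58 ± 0.31 in KY1005.F (adjusted p = 0.00183). For MmugDNA.5921.1.S1_s_at the differences were 2.02 ± 0.31 (adjusted p = 2.48e-07), 1.47 ± 0.30 (adjusted p = 0.000412) and 1.78 ± 0.37 (adjusted p = 0.00346). On both of these probe sets the KY1005.F call was lost under at least 1 alternative setting, unlike those in NoRx.F and Siro.F. The probe sets disagreed on the weaker calls. Tac.Mtx.F passed on probe sets 1 and 3 (on the latter 0.98 ± 0.34, adjusted p = 0.0393) and not on probe set 2 (0.78 ± 0.29, adjusted p = 0.0534). KY1005.Siro.D28 likewise passed on probe sets 1 and 3 (on the latter 1.18 ± 0.31, adjusted p = 0.00764) and not on probe set 2 (0.68 ± 0.26, adjusted p = 0.0768). Bela.Siro.D14 passed on probe set 2 alone (0.99 ± 0.29, adjusted p = 0.0396). Over the 45 healthy animals the signals of probe set pairs had Pearson correlations of 0.59 to 0.88, with the array as their shared source. In these animals CTLA4 probe set 3 correlated with CD28 probe sets 2 (0.645) and 3 (0.737). That was no less than with CTLA4 probe sets 1 (0.588) and 2 (0.643), while CD28 probe set 1 gave 0.437.

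BTLA, the inhibitory receptor for TNFRSF14, moved apart from CTLA4. Healthy signals ran from 6.59 to 8.32 with a median of 7.48 (MmugDNA.19266.1.S1_at). In KY1005.Siro.D28 they were 6.59 in R.217, 7.12 in R.218, 6.82 in R.219, 6.73 in R.220 and 6.82 in R.221. All 5 animals lay below the healthy median and R.217 was just under the lowest healthy array. The signal was lower than in healthy animals by a log2 difference of -0.87 ± 0.24 (adjusted p = 0.0115, 12.1% of probe sets called), which is 0.547-fold. Without the arrays of high actin ratio it was -0.77 ± 0.26 (adjusted p = 0.0977), and R.207, one of them, had the highest healthy BTLA signal (8.32). Within batch 6 alone the value was -0.87 ± 0.19 (adjusted p = 0.0158).

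The same animals allow BTLA to be followed over time. From day 14 to day 28 the signal was lower in 5 of 5 animals, by -0.16 to -0.56. From day 28 to the last sample it was higher in 4 of 4, by 0.57 to 1.07. In KY1005.Siro.F the signals were 7.50, 7.39, 7.80 and 7.84 in R.217, R.219, R.220 and R.221, again around the healthy median. Over that later step the B cell score (mean of marker genes, each centred and scaled across arrays) rose in R.219 (-0.84 to 2.44). It also rose in R.220 (-0.41 to 0.001) and R.221 (-1.10 to 0.41), and fell in R.217 (-0.21 to -0.76). The myeloid score rose in R.219 (-1.08 to 3.50), R.220 (0.09 to 1.54) and R.221 (0.24 to 1.45), and fell in R.217 (0.36 to -0.96). The part of such cells in the BTLA values was not tested. Neither BTLA step passed the test over all probe sets. The earlier was -0.42 ± 0.26 (adjusted p = 0.625, 0.00946% of probe sets called) and the later 0.82 ± 0.28 (adjusted p = 0.132, 1.84% called). With the animal as a fixed block they were -0.42 ± 0.11 (adjusted p = 0.54) and 0.89 ± 0.12 (adjusted p = 0.214).

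BTLA was also lower at the later time in the 3 autologous animals measured at each time. BTLA was 8.35 in R.201, 7.57 in R.202 and 6.90 in R.200 at day 14, and 7.17, 6.50 and 5.98 at day 36. It was lower at day 36 in all 3, by -0.93 to -1.18, but the group difference of -0.74 ± 0.39 did not pass (adjusted p = 0.247). R.62, measured at day 30 only, had 7.79. Against healthy animals Auto.D36 differed by -0.58 ± 0.24 (adjusted p = 0.126), and by -0.96 ± 0.29 without R.62 (adjusted p = 0.0174). The days, batches and actin ratios of the autologous groups differ: Auto.D14 lies in batch 5, Auto.D36 in batches 2 and 4, and R.201 and R.202 had the high ratio at day 14.

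The highest fitted BTLA means were in Tac.Mtx.D14 and Siro.F. Tac.Mtx.D14 had 7.91 in R.21, 8.20 in R.20 and 8.47 in R.19, with 1 array above the healthy range and a difference of 0.79 ± 0.27 (adjusted p = 0.141). Siro.F had 8.00 in R.13, 8.999 in R.18, 7.53 in R.17 and 7.70 in R.16, all above the healthy median, with a difference of 0.58 ± 0.23 (adjusted p = 0.11). NoRx.F, where CTLA4 was also high, had 7.46, 7.61, 6.89 and 7.20 in R.53, R.50, R.51 and R.52, a difference of -0.12 ± 0.25 (adjusted p = 0.761). Siro.F against NoRx.F was 0.71 ± 0.30 for BTLA (adjusted p = 0.151, 6.45% of probe sets called). None of these BTLA differences passed the test.

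CD28 itself, the receptor whose ligands belatacept covers, had no call on its brightest probe set, and its 3 calls were on probe set 2. Healthy signals of the brightest probe set (MmuSTS.1983.1.S1_at) ran from 5.99 to 7.79 with a median of 7.01. In NoRx.F they were 5.97 in R.53, 7.87 in R.50, 7.18 in R.51 and 6.75 in R.52, so that the group held both an array below and one above the whole healthy range. The difference was -0.10 ± 0.28 (adjusted p = 0.831), with a 95% interval from -0.66 to 0.45. The largest difference was in Tac.Mtx.F, at 0.63 ± 0.30 (adjusted p = 0.157), where R.21, R.20 and R.19 had 7.97, 7.65 and 7.08. It passed when the fit held batch 3 alone (0.63 ± 0.21, adjusted p = 0.0444). In KY1005.Siro.D28 the signals were 8.13 in R.217, 6.87 in R.218, 7.08 in R.219, 7.13 in R.220 and 8.05 in R.221, and the 2 animals above the healthy range were those with the highest CTLA4.

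The second CD28 probe set (MmugDNA.27546.1.S1_s_at) was lower in Auto.D14, with 5.37 in R.201, 5.10 in R.202 and 5.92 in R.200 against a healthy range of 5.33 to 6.90. The difference was -1.07 ± 0.31 (adjusted p = 0.012, 19.4% of probe sets called). On probe set 3 (MmugDNA.27543.1.S1_at) it was -0.66 ± 0.28 (adjusted p = 0.0752), and on the brightest -0.17 ± 0.35 (adjusted p = 0.756). R.201 and R.202 are the Auto.D14 arrays of high actin ratio, and the call was lost without R.201 (-1.02, adjusted p = 0.0664) or without R.202 (-0.88, adjusted p = 0.139). Without both, and the healthy arrays of high ratio, the arm is R.200 alone and the difference was -0.61 ± 0.46 (adjusted p = 0.733). With CD4 minus CD8A as a covariate it was -0.50 ± 0.27 (adjusted p = 0.233). The same probe set was also higher in NoRx.F than in Auto.D14 (1.58 ± 0.39, adjusted p = 0.00731) and in Auto.D36 than in Auto.D14 (1.30 ± 0.39, adjusted p = 0.0294, 7.06% of probe sets called). With R.200 as the lone Auto.D14 array these were 1.11 ± 0.52 (adjusted p = 0.501) and 0.77 ± 0.52 (adjusted p = 1), which leaves little power to check the calls. With the animal as a fixed replicate block the latter was 1.04 ± 0.32 (adjusted p = 0.126).

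ICOS, the inducible receptor of activated and follicular helper T cells, was bright in healthy T cells, with signals from 8.51 to 10.25 and a median of 9.47 (MmugDNA.26170.1.S1_at, 87.5th percentile of probe sets). In NoRx.F it was 9.43 in R.53, 10.88 in R.50, 9.77 in R.51 and 10.91 in R.52. R.50 and R.52 were above every healthy array, and these were also the animals with the most CTLA4. The signal was higher by 0.79 ± 0.24 (adjusted p = 0.0102), or 1.72-fold. Without R.50 the difference was 0.60 (adjusted p = 0.0935) and without R.52 it was 0.59 (adjusted p = 0.1). KY1005.F had 10.21 in R.211, 10.11 in R.206 and 10.03 in R.212, close together and all near the top of the healthy range, with a difference of 0.69 ± 0.29 (adjusted p = 0.149). In Siro.F the signals were 10.002, 10.18, 9.80 and 9.06 in R.13, R.18, R.17 and R.16, a difference of 0.33 ± 0.23 (adjusted p = 0.452).

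**Figure D3:**
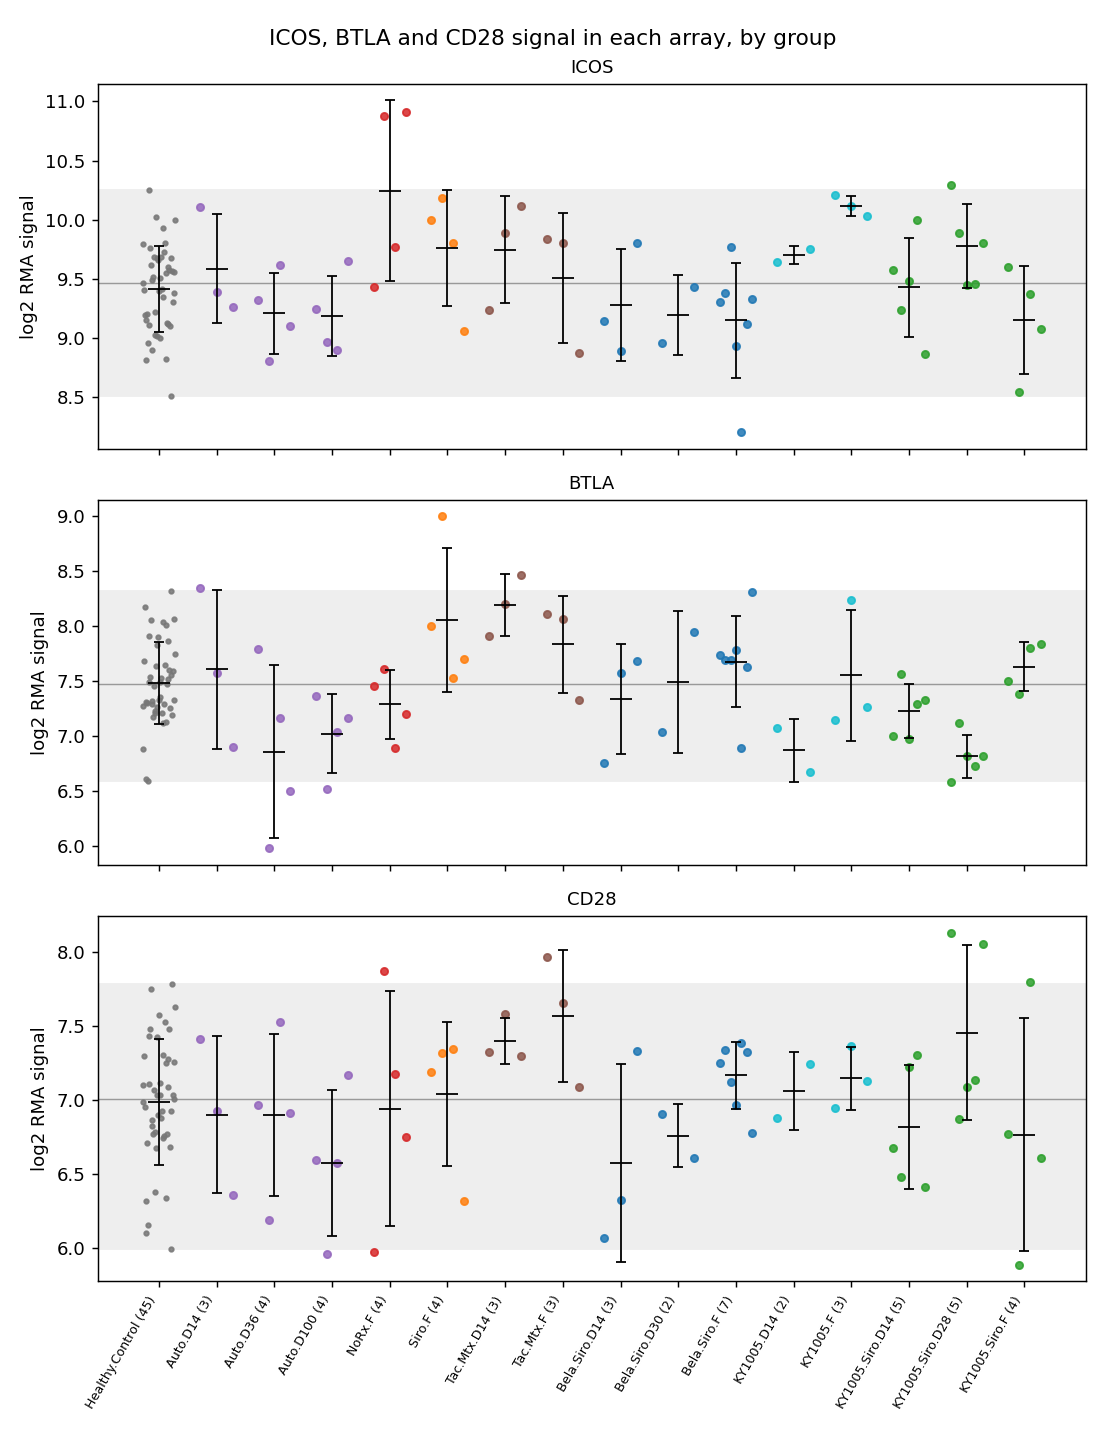
Log2 RMA signal of the ICOS, BTLA and CD28 probe sets (brightest of each gene) in every array, by group with the number of arrays in brackets; bars are mean and SD, the grey band is the healthy range and the grey line the healthy median. For ICOS 2 NoRx.F arrays lie above the band, and for BTLA the 5 KY1005.Siro.D28 arrays lie below the median line.

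Belatacept with sirolimus was compared with sirolimus alone and with no prophylaxis, because belatacept is made to cover the CD28 ligands. Whether the ligands were covered at sampling is not known from the labels. The CTLA4 signals of Bela.Siro.F were 6.36 in R.38, 8.02 in R.42, 7.83 in R.49, 7.42 in R.68, 7.53 in R.66, 6.71 in R.67 and 6.12 in R.70. R.42 and R.49 were above the healthy range and R.38 and R.70 below the healthy median. Against healthy animals the difference was 0.63 ± 0.28 (adjusted p = 0.151, 10% of probe sets called), with 95% limits of 0.07 and 1.19. Against Siro.F it was -0.94 ± 0.44 (adjusted p = 0.387, 0.747% of probe sets called), with limits of -1.82 and -0.06. The highest Bela.Siro.F signal of 8.02 lay inside the Siro.F range. CD28 was 0.19 ± 0.35 (adjusted p = 0.893), ICOS -0.61 ± 0.30 (adjusted p = 0.425) and BTLA -0.31 ± 0.30 (adjusted p = 0.769) in that comparison. These 2 groups share no batch either, and their days (26 to 105 against 12 to 24) do not overlap, so treatment, batch and time cannot be told apart.

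Against NoRx.F, ICOS was lower in Bela.Siro.F by -1.07 ± 0.31 (adjusted p = 0.0112, 14% of probe sets called). The 7 ICOS signals ran from 8.20 to 9.77 with a median of 9.30, and 6 of 7 were below the healthy median. CTLA4 was lower by -1.59 ± 0.40 on probe set 3 (adjusted p = 0.00286), with -0.93 ± 0.45 on probe set 1 (adjusted p = 0.173) and -0.85 ± 0.34 on probe set 2 (adjusted p = 0.0803). On the mean of the 3 probe sets it was -1.13 ± 0.37 (adjusted p = 0.0296). The ICOS call was lost without R.50 (-0.89, adjusted p = 0.064) or without R.52 (-0.88, adjusted p = 0.0679). The groups share no batch, and the days of 26 to 105 against 6 to 12 do not overlap, so treatment and time after transplant cannot be told apart.

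The animals given belatacept and sampled more than once are given 1 by 1 for CTLA4. R.38 had 6.00 at day 14, 6.21 at day 30 and 6.36 at day 64. R.42 had 7.92 at day 14, 7.94 at day 30 and 8.02 at day 33. R.49 had 8.21 at day 14 and 7.83 at day 29, against 6.34 in its own healthy array of the same batch. On probe set 1 R.38 was the lowest at each time, by more than any animal moved over time. On the dimmer probe sets R.38 was again the lowest at both day 14 and the last sample, but R.49 moved by -0.97 on probe set 2 (7.63 to 6.66) and by -1.24 on probe set 3 (7.48 to 6.25), more than its final distance from R.38 (at 5.95 and 5.51). In the KY1005.Siro animals the order changed: R.221 went from the lowest of 5 at day 14 (6.64) to the highest at day 28 (8.22), and R.220 from the highest (7.69) to the lowest (6.96). From day 14 to day 28 CTLA4 was higher in 3 and lower in 2 of these 5 animals, with a group difference of 0.44 ± 0.38 (adjusted p = 0.734). In 6 tests of whether time courses differ between treatments, run on each of the 8 probe sets, limma called 0 (lowest adjusted p = 0.09), against 4 of 48 at an unadjusted p of 0.05 or less. Over all probe sets the shares called in these 6 tests were 0%, 0.00315%, 0.00315%, 0.00631%, 0.0378% and 2.84%.

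**Figure D4:**
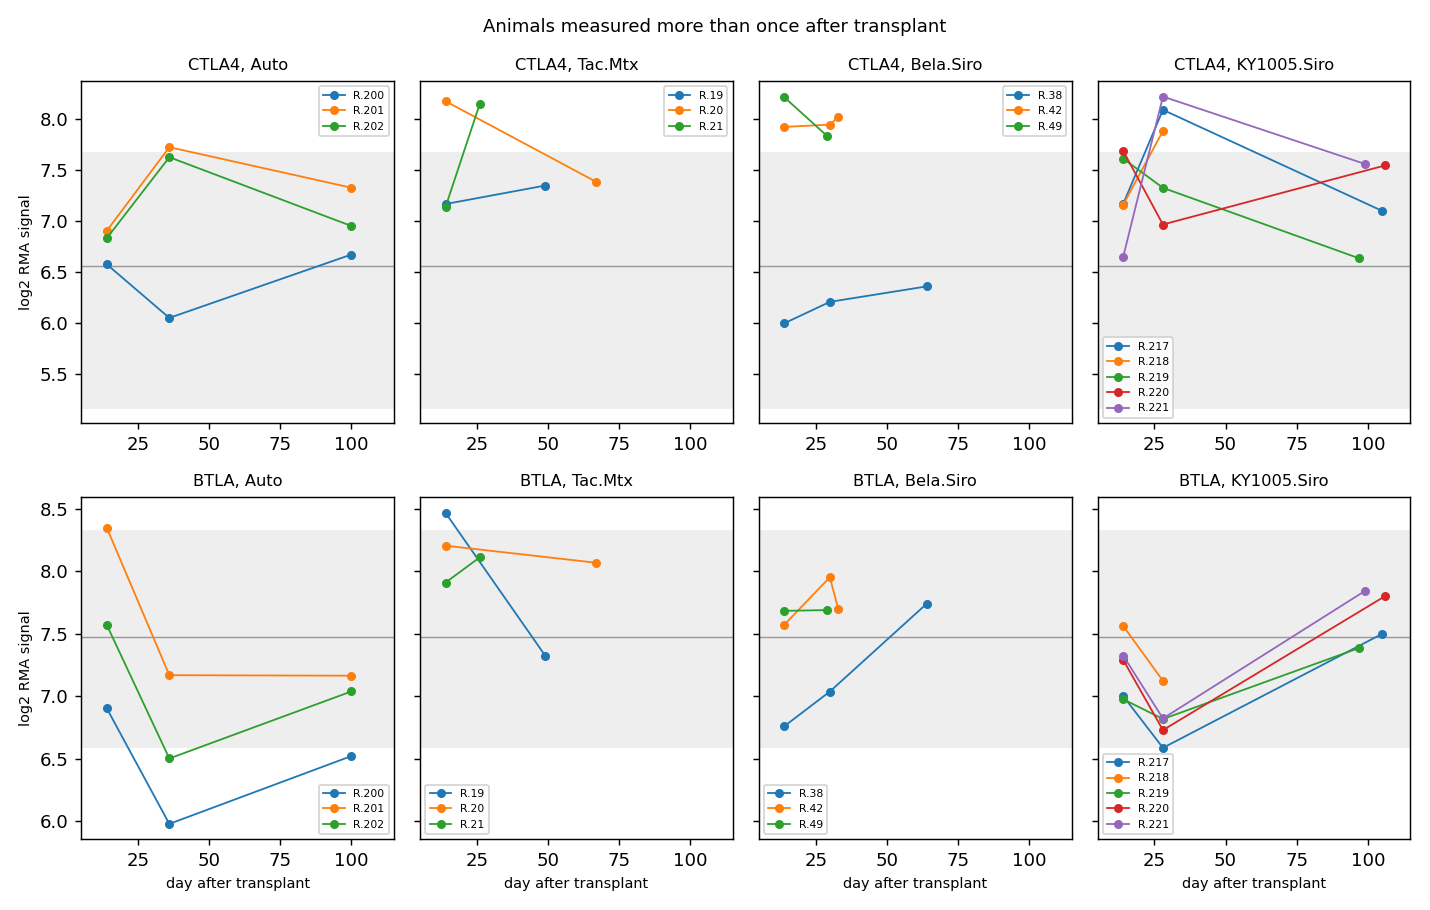
Log2 RMA signal of CTLA4 (top) and BTLA (bottom) against day after transplant for animals measured more than once, by treatment; each line is 1 animal, the grey band is the healthy range and the grey line the healthy median. BTLA is lower at the middle than at the first sample in all 3 Auto and all 5 KY1005.Siro animals, and the CTLA4 line of R.38 stays below those of R.42 and R.49.

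For 11 animals a healthy array of the same animal exists, with 18 later arrays. R.200, R.201 and R.202 gave 3 later arrays each, so the arrays are not independent. The differences are of signals without a batch adjustment. Some pairs cross batches: those of R.206, of R.16, and of R.200, R.201 and R.202 at days 14 and 100. CTLA4 was higher than the animal's own healthy value in 13 of 18 arrays, with a median difference of 0.64 and a range from -1.09 to 1.99. The largest was R.13 in Siro.F, with 8.44 against 6.44. R.18 in the same group had 8.47 against 7.48, and R.16 had 8.10 against 7.67, its own healthy value being the highest of all. R.53 in NoRx.F had 7.70 against 6.02, and R.206 in KY1005.F had 8.46 against 7.42. The 5 lower arrays were all autologous, 3 of them from R.200 at its 3 times. ICOS was higher in 12 of 18 (median 0.19), BTLA in 8 (median -0.15) and CD28 in 8 (median -0.06). On CTLA4 probe sets 2 and 3 the counts were 12 and 14 of 18 (medians 0.81 and 0.55), so that by count ICOS was much like CTLA4, with a smaller median. The difference between the genes was not tested.

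The order of the 16 fitted group means differed between the genes. For CTLA4 it ran from KY1005.F (8.40), Siro.F (8.19) and NoRx.F (8.19) down to healthy controls (6.63), Auto.D100 (6.54) and Auto.D14 (6.44). For ICOS NoRx.F led (10.21) and Bela.Siro.F was last (9.13), and for BTLA Tac.Mtx.D14 led (8.29) and KY1005.Siro.D28 was last (6.63). For CD28 Tac.Mtx.F led (7.63) and Auto.D100 was last (6.54). No neighbours in these orders differed beyond their error: the lowest adjusted p of the 60 neighbour pairs was 0.605. Neighbours were picked by rank, so their gaps are small by construction. These tests cannot tell whether the order as a whole holds. Over the 16 fitted means CTLA4 and ICOS had a Pearson correlation of 0.70, against 0.10 for CTLA4 and BTLA. Over 45 healthy animals these were 0.47 and 0.07, with the array as shared source. In healthy animals CD28 correlated with CD4 at 0.55 and with CD8A at -0.39, the coreceptors of the helper and killer subsets.

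The ligands of the family were measured for CD80, CD86 and TNFRSF14, and ICOSLG did not pass the filter. CD80 and CD86 are genes of presenting cells more than of T cells. In Tac.Mtx.F CD86 was higher by 2.36 ± 0.75 (adjusted p = 0.0233) and CD80 by 0.82 ± 0.22 (adjusted p = 0.00747). In Bela.Siro.F CD80 was higher by 0.47 ± 0.16 (adjusted p = 0.0465), while CD86 differed by 0.65 ± 0.55 (adjusted p = 0.512). Over all probe sets 14.3% were called either way in Tac.Mtx.F and 10% in Bela.Siro.F. Of 11 monocyte and myeloid markers 2 were higher in Tac.Mtx.F and 4 in Bela.Siro.F, with 0 lower. Their mean log2 signal ran from 6.52 to 8.66 in Bela.Siro.F and from 4.84 to 7.20 in healthy animals, and the part of such cells in the ligand values was not tested. TNFRSF14, the ligand of BTLA, differed by -0.28 ± 0.13 in KY1005.Siro.D28 (adjusted p = 0.137) and by 0.10 ± 0.13 in NoRx.F (adjusted p = 0.631). CD276, a molecule of the same family as CD80 and CD86, was higher in NoRx.F (0.72 ± 0.13) and Siro.F (0.56 ± 0.12).

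The list of genes that respond to CD28 costimulation holds genes it is known to raise and 1, the cell cycle inhibitor CDKN1B, that it is known to lower. Of 16 measured, 6 were higher and 4 lower in NoRx.F, with a median difference of 0.07. Of all 10718 genes, 2036 were higher and 1631 lower there, with a median of 0.05. The activation factor BATF rose by 1.47 ± 0.21, while MYC fell by 1.41 ± 0.32 and CDKN1B by 1.49 ± 0.15 (a log2 difference of -1.49). The other lower genes were CD40LG (-1.18 ± 0.23) and IL2 (-0.46 ± 0.12), named because the count is small. In Siro.F 6 were higher and 1 lower (median 0.17, against 647 higher, 527 lower and 0.02 for all genes), led by EGR2 (2.18 ± 0.56), IFNG (1.56 ± 0.52) and the OX40 gene TNFRSF4 (1.22 ± 0.18), and the lower gene was CDKN1B (-0.48 ± 0.14). In KY1005.F 2 were higher and 2 lower, with BATF higher by 1.02 ± 0.25, the glycolytic enzyme gene LDHA higher by 0.69 ± 0.14 with CD40LG, the helper ligand, at -1.11 ± 0.27 and CDKN1B at -0.66 ± 0.17. In Bela.Siro.F 2 were higher and 1 lower, with TNFRSF4 higher by 1.26 ± 0.15. Over all probe sets 3.28% were called in KY1005.F and 10% in Bela.Siro.F, in either direction.

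Genes tied to ICOS and follicular help gave 4 higher and 1 lower of 11 in NoRx.F, 5 and 0 in Siro.F, and 1 and 0 in KY1005.F. In either direction 27.5% of all probe sets were called in NoRx.F, 8.91% in Siro.F, 3.28% in KY1005.F and 14.3% in Tac.Mtx.F. Beside every list such shares are of probe sets, while the list counts are of genes. The like base for NoRx.F and Siro.F is the count over all genes given with the costimulation list. TIGIT, an inhibitory receptor, rose by 1.19 ± 0.25 in NoRx.F and 1.48 ± 0.24 in Siro.F, and CD200 rose by 1.86 ± 0.27 in Siro.F and 1.82 ± 0.22 in Bela.Siro.F. SH2D1A, an adaptor of follicular help, rose by 1.13 ± 0.24 in NoRx.F and fell by 0.88 ± 0.19 in Bela.Siro.F. The 9 genes of CTLA4 trafficking gave 3 higher and 1 lower in NoRx.F and 0 in Siro.F, KY1005.F and Tac.Mtx.F. TRAT1, which carries CTLA4 to the surface, fell by 1.47 ± 0.21 in NoRx.F. Of the 7 phosphatase genes of the inhibitory receptors, PTPN6 rose by 0.69 ± 0.17 in NoRx.F and 0.57 ± 0.17 in Siro.F. In the PI3K and AKT branch below CD28, 5 were higher and 4 lower of 16 in NoRx.F, and PIK3CA, a catalytic subunit, fell by 1.61 ± 0.22 there and by 0.65 ± 0.21 in Siro.F.

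CTLA4 is also a gene of regulatory and of dividing T cells, so both sets of markers are given beside it. FOXP3 differed by -0.07 ± 0.14 in NoRx.F, 0.15 ± 0.13 in Siro.F and -0.42 ± 0.16 in KY1005.F (adjusted p = 0.751, 0.565 and 0.125), at a signal near the floor. Of 11 regulatory T cell genes 5 were higher and 2 lower in NoRx.F, 5 and 1 in Siro.F, 2 and 1 in KY1005.F, and 5 and 0 in Auto.D14, where CTLA4 was not called. The largest rise among them was that of ENTPD1, an ectonucleotidase (2.58 ± 0.28 in NoRx.F, 2.23 ± 0.27 in Siro.F and 1.61 ± 0.33 in KY1005.F). The genes called lower are not named here, and ENTPD1 does not stand for the list. The proliferation gene MKI67 rose by 3.30 ± 0.37 in NoRx.F, 1.58 ± 0.35 in Siro.F, 1.44 ± 0.43 in KY1005.F and 2.23 ± 0.46 in Auto.D14. In KY1005.Siro.D28 it differed by -0.33 ± 0.37 (adjusted p = 0.621). Of 14 cell cycle genes 14 were higher in NoRx.F, 13 in Siro.F, 6 in KY1005.F, 12 in Auto.D14 and 0 in KY1005.Siro.D28. The Auto.D14 values here include its arrays of high actin ratio. Of all probe sets 27.5% were called either way in NoRx.F, 8.91% in Siro.F, 3.28% in KY1005.F, 19.4% in Auto.D14 and 12.1% in KY1005.Siro.D28. In KY1005.F the cell cycle score, the mean over genes after each was centred and scaled to unit SD across arrays, was 2.58 in R.211, 0.55 in R.206 and -0.11 in R.212, and R.211 was also the highest in CTLA4. The part of dividing or regulatory cells in the CTLA4 values was not tested.

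Marker genes of cell types and states also differed in some of these groups. In NoRx.F 7 of 9 naive and central memory genes were lower and 0 higher, and their mean log2 signal ran from 9.70 to 10.12 against 10.04 to 11.66 in healthy animals. In Siro.F 4 of the 9 were lower, and in KY1005.F 0. Over all probe sets 27.5% were called either way in NoRx.F, 8.91% in Siro.F, 3.28% in KY1005.F and 12.1% in KY1005.Siro.D28. Of 8 core T cell genes 2 were lower in NoRx.F and 0 in Siro.F and KY1005.F. Scaled as above, the core T cell score of NoRx.F (-0.90 to -0.44) lay below all healthy arrays (-0.42 to 0.75) and that of Siro.F (-0.81 to -0.26) at their lower end. Of 6 plasma cell genes 2 were higher in NoRx.F, 2 in Siro.F and 1 in KY1005.F. Among these genes XBP1 and PRDM1 stood at the 89.2 and 87.3 percentile in healthy animals, and JCHAIN at 3.26. The plasma cell score ran from 0.68 to 1.49 in NoRx.F and from 0.31 to 1.42 in Siro.F, against a healthy median of -0.11 and a highest healthy value of 0.68. The part of these shifts in the CTLA4 and ICOS values was not tested. CD8A was higher in NoRx.F by 0.73 ± 0.16 (adjusted p = 0.000153), where CD4 differed by -0.15 ± 0.20 (adjusted p = 0.636). In KY1005.Siro.D28, the group with the called BTLA difference, CD4 differed by 0.42 ± 0.19 (adjusted p = 0.145) and CD8A by -0.44 ± 0.16 (adjusted p = 0.0529). With CD4 minus CD8A as a covariate the CTLA4 difference of that group was 0.80 ± 0.36 (adjusted p = 0.214), and the BTLA call was kept. MS4A1, a B cell gene, differed by -2.23 ± 0.52 in KY1005.Siro.D28 (adjusted p = 0.00243) and by -2.12 ± 0.61 in KY1005.F (adjusted p = 0.0371). BTLA is also a gene of B cells. The mean log2 signal of 7 B cell markers ran from 5.16 to 5.56 in KY1005.Siro.D28 and from 5.16 to 6.50 in healthy animals, and 1 of the 7 was lower. With the B cell score as a covariate the BTLA call was kept and the CTLA4 difference was 0.93 ± 0.37 (adjusted p = 0.0877).

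For each member the 4 genes with the most like pattern over the 16 fitted group means are named. CTLA4 was most like BZW2 (Pearson r = 0.88), SUV39H2 (0.86), ETF1 (0.85) and PLIN3 (0.83). ICOS was most like COX19 (0.89), ZNF79 (0.83), TSR1 (0.82) and ZNF41 (0.79), BTLA like SDHAF4 (0.93), FASTKD3 (0.91), BBS10 (0.88) and ANKAR (0.88), and CD28 like UBAP2L (0.85), AS3MT (0.81), UTP15 (0.80) and VWF (0.75). These were picked as the highest of all 10718 genes, so high values are built in. Across the 45 healthy animals, which did not enter the choice one by one, FASTKD3 (0.67) and BBS10 (0.57) still went with BTLA and BZW2 (0.41) with CTLA4, while UBAP2L went against CD28 (-0.57).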

How the data were processed

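RNA from 70 to 85 ng of total RNA was labelled by the 3' IVT Plus protocol and hybridised to 1-colour Affymetrix arrays, per the labels' protocols. The values are log2 signals that the authors made with RMA in the affy package, per the submitters' processing notes; versions are not given in the sources used here. RMA sets all arrays to 1 distribution (array medians 5.13 to 5.35), so a shift of all genes is removed. Of 52865 probe sets, 24969 are paired with 1 gene by the platform annotation, 361 with several and 27535 with none. Here, 99 control probe sets were left out, a probe set was kept if 3 or more arrays reached the overall median signal of 5.21 (31711 were), and limma 3.58.1 in R 4.3.3 (with data.table at version 1.17.8) was fitted with 16 groups and 6 batches on 101 arrays, with 80 residual degrees of freedom. A gene was read by its brightest probe set, the one with the highest mean signal over all 101 arrays. Comparisons used eBayes with Benjamini-Hochberg adjustment over all kept probe sets, and the script was tested on simulated data. Named genes are, of each list, up to 3 called ones with the largest difference, and some lower ones of the costimulation list. A few ligand and subset genes are named whatever their values. The T cell and NK genes that check the sort are named too, with the 4 genes most like each member. Animals recur across groups, so the animal was tried as a block; other alternatives are given in the closing section. Members and lists were chosen with earlier results of these data known. The arrays of 1 group come from separate animals.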

Additional observations from a re-analysis of the deposited data

Results flagged for a closer look

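The CD28 signal of R.16 in Siro.F lay far from those of the other 3 animals of its group. It was 6.32 on the brightest probe set, where the others had 7.19 to 7.34, and 5.96 on probe set 3, where the others had 6.36 in all cases. The group difference from healthy animals was not called on either probe set. Of 64 group and probe set combinations with enough arrays for this check 2 stood out, and chance flags about 1 in 20 such groups.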

How the results depend on the processing

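Of 5644 values under alternative settings, over 264 results, 5519 kept direction and side of the threshold, 68 lost a call, 56 gained one and 1 reversed. The reversal was BTLA in KY1005.F against healthy controls, 0.48 with array weights (adjusted p = 0.0364) against -0.13. Of the 23 calls 7 were ended by no setting tried: CTLA4 on its 3 probe sets in NoRx.F and Siro.F, and probe set 3 in Bela.Siro.F against NoRx.F. The last faced fewer settings, because arrays of Bela.Siro.F were not left out 1 by 1 and the groups share no batch. Arrays of healthy controls were not left out 1 by 1 either. Out of 15 groups, BTLA was called in 1, in 2 without the batch term, in 3 with array weights and in 0 without the arrays of high actin ratio. CD28 was called in 0, in 1 within the batches of the group, in 1 with array weights and in 1 on probe set 2. CTLA4 was called in 5, and in 3 without the arrays of high actin ratio. ICOS was called in 1, and in 2 with array weights. Leaving out 1 array gave 1 to 2 groups for BTLA, 0 for CD28, 0 to 1 for ICOS and 4 to 6 for CTLA4. The cause of these changes was not tested. With the animal as a random replicate block (consensus correlation 0.11) 262 of 264 results were the same and 2 gained a call, both on CTLA4 probe set 2: Tac.Mtx.F against healthy (adjusted p = 0.0478) and NoRx.F against Auto.D14 (adjusted p = 0.0414). With a fixed animal block, where the pairing allowed it, 47 of 48 were the same. A fit within shared batches gave no value for comparisons of groups without one.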
